A study of Mus musculus with 16 samples.

Results

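The 10 genes described here encode transporters and tight junction proteins of the blood-brain barrier: Abcb1a, Abcg2, Slco1a4, Slco1c1, Slc2a1, Mfsd2a, Slc7a5, Slc16a1, Ocln and Tjp1. They were chosen by name, from what the genes are known to do, but with earlier results of these data known. Shares of members set beside those of all genes are therefore descriptions. Each member was matched to its row by its Ensembl identifier. All 10 had a row among the 21804 genes of the table, and all 10 passed the filter on low counts in every comparison. Cldn5, the main claudin of brain endothelium, was not analysed here.

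The mice were on a C57BL/6 background, aged 4 months, and carried 1 copy (ret/wt, the controls) or 2 copies (ret/ret) of the Pdgfb retention allele, so no group was free of the allele. Each of 8 animals, 4 per genotype, gave a cortex and a thalamus library, which makes 4 groups of 4: ret/wt cortex, ret/ret cortex, ret/wt thalamus and ret/ret thalamus. The ret/ret thalamus pieces were calcifications cut out under a fluorescence stereomicroscope, whereas the controls gave the matching region, so genotype and dissection cannot be told apart in thalamus. RNA of whole tissue pieces was polyA-enriched and sequenced as stranded libraries. In such bulk samples, fewer cells of a type and less RNA per cell cannot be told apart.

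The blood-brain barrier is formed by the endothelial cells of brain capillaries, which are sealed to each other by tight junctions and move solutes through membrane transporters. Efflux pumps return drugs and other foreign compounds to the blood, and carriers bring in glucose, amino acids, monocarboxylates, hormones and lipids. Pericytes, recruited to the vessel wall by PDGF-B that the endothelium secretes, help to induce and keep the barrier. The retention motif of PDGF-B holds the growth factor near the vessel, and mice that lack it on both copies have few brain pericytes and a leaky barrier.

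Libraries held 13415391 to 29135064 counts, and 3 counts in a library equalled 0.103 to 0.224 CPM, the unit of expression used here: reads of a gene per fixed number of reads, on a TMM scale that all 16 libraries share. Every member lay far above that floor. Mitochondrial genes took 3.22% to 12.1% of the counts. Neuron markers followed the labelled regions. The mean log2 CPM of the cortex neuron list was 4.80 to 6.35 in cortex and 0.78 to 2.77 in thalamus. That of the thalamus neuron list was 2.463 to 3.681 in cortex and 4.597 to 7.794 in thalamus. Some libraries stood apart from the rest. A list of cerebellum genes averaged −0.68 to 1.08 log2 CPM in 6 of the 8 cortex libraries, but 6.32 in replicate 3 of the controls and 7.67 in replicate 2 of the ret/ret animals. The same 2 libraries held the Y-linked gene Ddx3y at 68.3 and 68.7 CPM, and their animals were the only ones above 5 CPM for it. Choroid plexus genes summed to 1196 CPM in ret/wt cortex replicate 4 and to at most 78.2 CPM in the other ret/wt cortex libraries. Thalamus pieces also differed: thalamus neuron genes summed to 3219 CPM in ret/wt thalamus replicate 3 and to 3453 CPM in ret/ret thalamus replicate 2. The other thalamus libraries reached at most 1227 CPM.

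General endothelial genes, a list of 20 measured genes used as endothelial markers, provide the reference beside which the members are read. The list was not uniform between regions: in ret/wt mice 18 of 19 tested genes leaned to thalamus. The adjusted test called 1 lower there, with a log2 fold change of −2.03. None of the 20 was at 0 in a group. Their summed level was 240.2 to 462 CPM in ret/wt cortex, 379 to 696 CPM in ret/ret cortex, 260 to 411 CPM in ret/wt thalamus and 352 to 713 CPM in ret/ret thalamus. In cortex 18 of the 20 had a positive log2 fold change of ret/ret over ret/wt, with a median of 0.74, and in thalamus 19 of 20 did, with a median of 0.43, while the median of all genes tested was 0.01 and −0.02. None of the 20 passed an adjusted p of 0.05 in either region, and without the animals with Y-linked reads the medians were 0.71 and 0.42. The thalamus median depended on 1 library: without ret/ret thalamus replicate 1 it was 0.12, with 16 of 20 genes positive. Without ret/ret cortex replicate 1 the cortex median was 0.53, with 18 of 20 positive. Pericyte genes had a median log2 fold change of −0.94 in cortex, where 3 of 10 tested genes were positive, and of −0.75 in thalamus, where 0 of 12 were. At an unadjusted p under 0.05, 6 were lower in cortex and 3 in thalamus. The adjusted test called 1 pericyte gene in cortex, Rgs5, a regulator of G protein signalling (log2 fold change −1.70 ± 0.20, adjusted p = 0.041), and 0 in thalamus. Without the animals with Y-linked reads 0 of 10 were positive in cortex, with a median of −1.70, and the adjusted test called 0. Their summed level ran from 150 to 185 CPM in ret/wt cortex and from 54.9 to 544 CPM in ret/ret cortex, where replicate 2, the library with cerebellum genes, gave the highest value and the other 3 reached at most 86.9 CPM. The mean log2 CPM of the list in replicate 2 was only 1.78, below the 2.31 to 2.90 of ret/wt cortex. In thalamus the pericyte sum was 218 to 379 CPM in ret/wt and 75.8 to 269 CPM in ret/ret libraries. The part of these cell type differences in the results on the members was not tested.

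**Figure D1:**
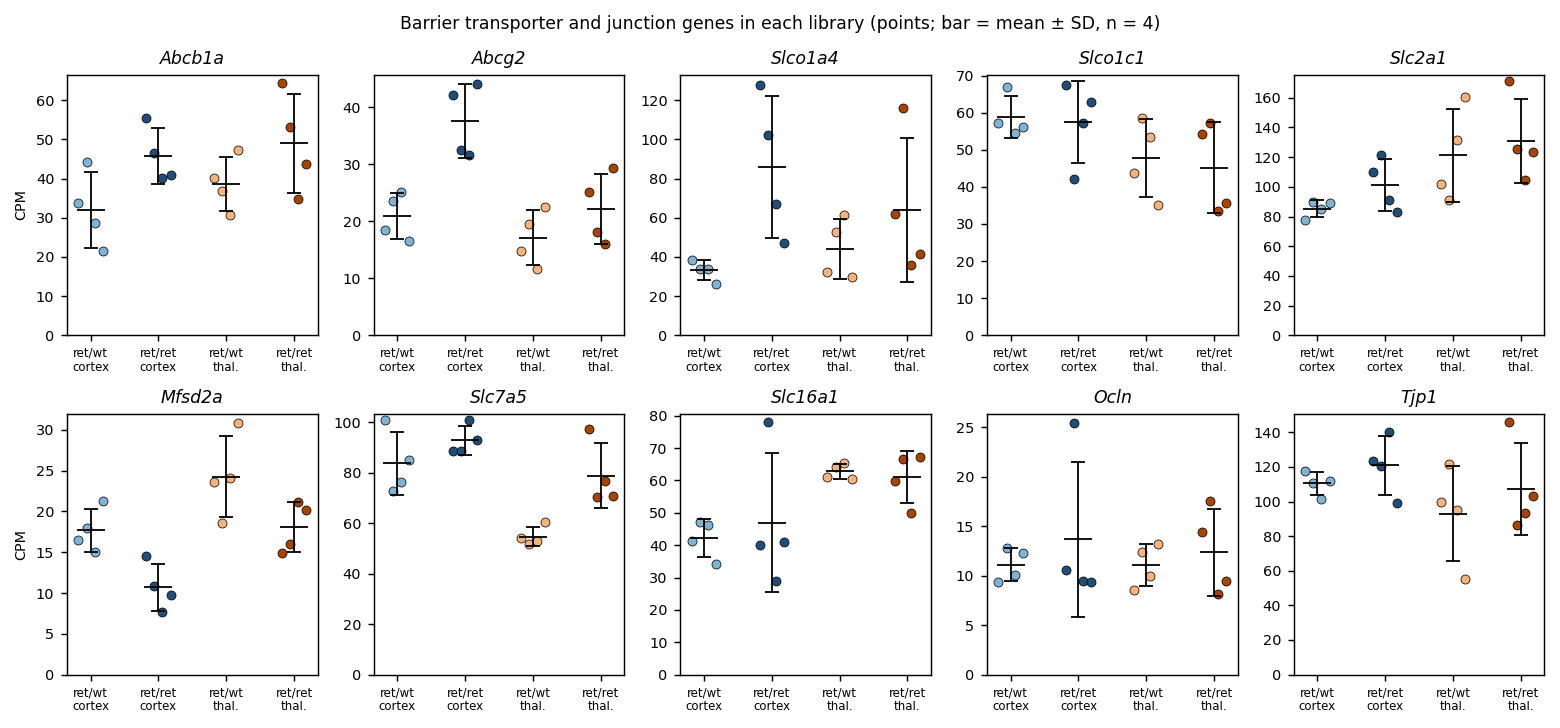
Level of each member in every library, in CPM on a linear axis from 0. Points are single libraries of ret/wt cortex, ret/ret cortex, ret/wt thalamus and ret/ret thalamus (n = 4 each), horizontal bars are means and error bars are SD. In cortex the ret/ret points of Slco1a4 and Abcg2 all lie above the ret/wt points and those of Mfsd2a all lie below.

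In cortex, the ret/ret libraries held more Slco1a4 and Abcg2 and less Mfsd2a than the controls, with no overlap between the groups, but no member passed the adjusted test. Slco1a4 stood at a mean of 86.0 CPM against 33.2, Abcg2 at 37.6 against 20.9 and Mfsd2a at 10.7 against 17.7. By edgeR's quasi-likelihood test 0 of 10 members had an adjusted p under 0.05, as did 0.021% of the 14288 genes tested (3 genes). An unadjusted p under 0.05 was reached by 4 of the 10, Slco1a4, Abcg2 and Abcb1a higher and Mfsd2a lower, against 3.77% of all genes (2.62% higher and 1.14% lower). The groups did not overlap for 3 of the 10, 2 higher and 1 lower, against 2.32% of all genes (1.58% higher and 0.735% lower). DESeq2 called 2 members, Slco1a4 at an adjusted p of 0.0072 and Abcg2 at 0.042, and limma-voom called 0. Of all 14288 genes DESeq2 called 38 and limma-voom 2.

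The efflux pumps lie on the blood-facing membrane of the endothelium and spend ATP to export their substrates. Abcb1a encodes P-glycoprotein (chr5:8660077-8748575, plus strand, GRCm38), the pump that keeps many drugs out of the brain. Its level was 33.7, 44.4, 28.5 and 21.4 CPM in ret/wt cortex and 55.5, 46.4, 40.2 and 40.9 CPM in ret/ret cortex. All but 1 of the ret/wt values lay below the ret/ret group. The log2 fold change was 0.54 ± 0.23 (SE), with an unadjusted p of 0.043 and an adjusted p of 0.999. The unadjusted p did not stay under 0.05 without the animals with Y-linked reads (0.47, unadjusted p = 0.13), nor without ret/wt cortex replicate 4, the library with choroid plexus genes (0.39, unadjusted p = 0.11), nor without ret/wt cortex replicate 1 or 3 or ret/ret cortex replicate 1, 2 or 4. Of the 31-base words of its transcripts, 21.7% also occur in Abcb1b, its near copy, so estimated counts could be shared between them. Abcb1b was at 3.30 ± 0.56 CPM (SD, n = 4) in ret/wt cortex and 3.25 ± 1.17 CPM in ret/ret cortex.

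Abcg2 encodes the breast cancer resistance protein (chr6:58584523-58695676, plus strand), which exports drugs and conjugated metabolites. It was measured at 18.4, 23.6, 25.1 and 16.6 CPM in ret/wt cortex and at 42.1, 32.5, 31.6 and 44.1 CPM in ret/ret cortex. The lowest ret/ret library was above the highest control. Its log2 fold change was 0.86 ± 0.20 (unadjusted p = 0.0014, adjusted p = 0.56). Without the animals with Y-linked reads it was 1.02 (adjusted p = 0.73).

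The organic anion transporting polypeptides carry bile acids, steroid conjugates and hormones. Slco1a4 (chr6:141805440-141856199, minus strand) encodes the family member that carries many organic anions and drugs across brain capillaries. Its ret/wt cortex libraries stood at 38.6, 34.1, 34.1 and 26.2 CPM and its ret/ret cortex libraries at 128.0, 102.1, 66.8 and 47.0 CPM. The ret/ret values were all higher and were spread more widely, with a coefficient of variation of 42.0% against 15.6%. The log2 fold change was 1.39 ± 0.30, a 2.62-fold difference (unadjusted p = 0.00097, adjusted p = 0.50), and 0.73% of all genes tested had a larger one. Without the animals with Y-linked reads it was 1.31 (adjusted p = 0.95). Of its 31-base words, 5.03% were shared with other genes, mostly Slco1a5, whose mean was 1.01 CPM in ret/ret cortex.

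Slco1c1 (chr6:141524368-141570177, plus strand), the carrier of the thyroid hormone thyroxine, gave no such difference. It stood at 57.3, 67.0, 54.6 and 56.2 CPM in ret/wt cortex and at 67.5, 42.1, 57.4 and 62.8 CPM in ret/ret cortex, and the groups overlapped throughout. Its log2 fold change was −0.02 ± 0.18, and its sign turned with library size alone as scaling. Astrocytes also express Slco1c1, and the summed astrocyte markers ran from 6370 to 7390 CPM in ret/wt cortex and from 7025 to 8905 CPM in ret/ret cortex.

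Of the 4 nutrient and lipid carriers, Mfsd2a was the one whose cortex groups were apart. Mfsd2a (chr4:122946850-122961188, minus strand) encodes the transporter of lysophosphatidylcholine that brings docosahexaenoic acid into the brain and holds down transcytosis in the endothelium. It was at 16.5, 17.98, 15.04 and 21.2 CPM in ret/wt cortex and at 14.6, 10.9, 7.6 and 9.7 CPM in ret/ret cortex. The highest ret/ret value fell just short of the lowest control. The log2 fold change was −0.71 ± 0.23 (unadjusted p = 0.013, adjusted p = 0.999), and 2.63% of all genes tested had a lower one. It was −0.79 without the animals with Y-linked reads and −0.60 without ret/wt cortex replicate 4. The 20 general endothelial genes ran from −0.13 to 2.71 in this comparison, so all 20 lay above Mfsd2a.

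The other 3 carriers overlapped between the cortex groups. Slc2a1 (chr4:119108711-119137983, plus strand), the glucose transporter GLUT1, was at 77.4, 89.8, 84.9 and 89.1 CPM in ret/wt and at 110.0, 121.2, 91.1 and 82.8 CPM in ret/ret cortex, with a log2 fold change of 0.27 ± 0.16 (unadjusted p = 0.13). Slc7a5 (chr8:121881150-121907694, minus strand), the large neutral amino acid carrier LAT1, had a log2 fold change of 0.16 ± 0.15, with ret/wt values of 72.8 to 100.9 CPM and ret/ret values of 88.7 to 100.8 CPM. Slc16a1 (chr3:104638668-104658462, plus strand), the lactate and ketone body carrier MCT1, was at 41.4, 47.3, 46.2 and 34.0 CPM in ret/wt cortex and at 40.1, 78.0, 28.8 and 40.96 CPM in ret/ret cortex. Its log2 fold change of 0.17 ± 0.29 rested on the library with 78.0 CPM, ret/ret cortex replicate 2, which holds cerebellum genes, and was −0.19 without it.

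The tight junction genes did not separate the cortex groups. Ocln (chr13:100496507-100552718, minus strand) encodes occludin, a membrane protein of the junction strand, and stood at 9.3, 12.8, 10.02 and 12.3 CPM in ret/wt cortex and at 10.5, 25.4, 9.4 and 9.4 CPM in ret/ret cortex. The value of 25.4 CPM came again from ret/ret cortex replicate 2. The log2 fold change was 0.32 ± 0.35 with that library and −0.17 without it. Tjp1 (chr7:65296165-65527781, minus strand) encodes ZO-1, the scaffold that ties junction proteins to actin. Its libraries ran from 101.7 to 117.6 CPM in ret/wt and from 99.1 to 140.1 CPM in ret/ret cortex, with a log2 fold change of 0.15 ± 0.15.

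**Figure D2:**
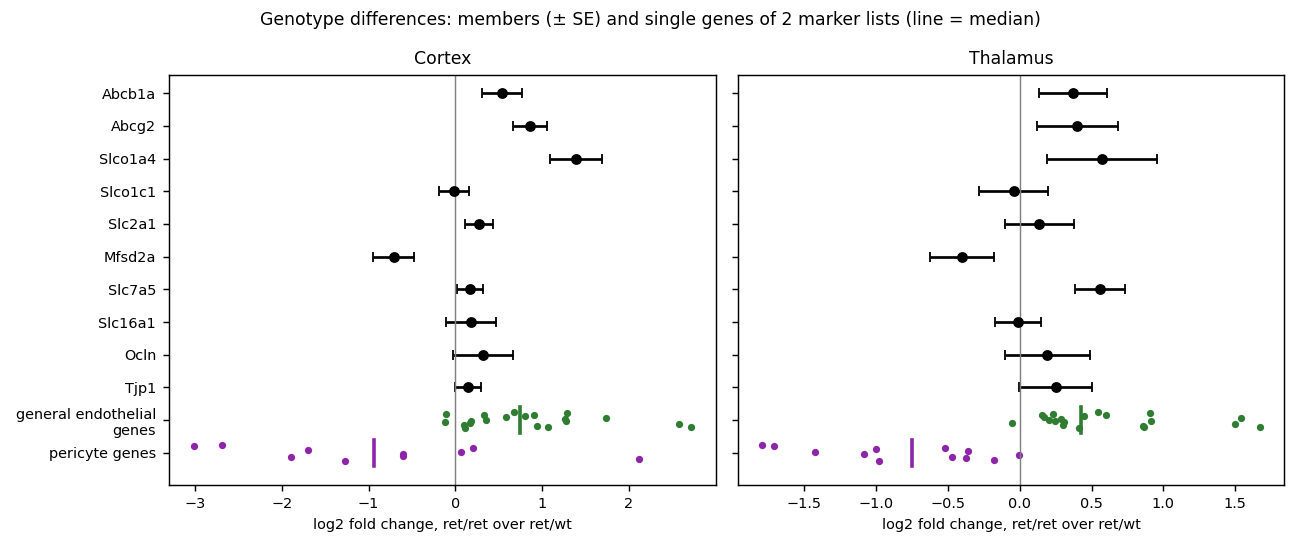
Log2 fold change of ret/ret over ret/wt in cortex (left) and thalamus (right). Black points with bars are the members ± SE (n = 4 per group), coloured points are single genes of the general endothelial and pericyte lists, and coloured lines are the medians of those lists. Mfsd2a, at −0.71 in cortex and −0.40 in thalamus, lies to the left of all 20 general endothelial genes in both panels.

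The upstream sequences of the 3 genes whose cortex groups did not overlap are shown because 2 were higher and 1 was lower in the same libraries. Each is the 250 bases before a RefSeq transcript start on GRCm38.p6, written 5′ to 3′ along the gene, at chr6:141856221-141856470 for Slco1a4 (minus strand), chr6:58584283-58584532 for Abcg2 (plus strand, the one of 3 RefSeq starts nearest to the annotated gene start) and chr4:122961189-122961438 for Mfsd2a (minus strand). Capitals mark matches to any of the 8 motifs named after the sequences.
Slco1a4: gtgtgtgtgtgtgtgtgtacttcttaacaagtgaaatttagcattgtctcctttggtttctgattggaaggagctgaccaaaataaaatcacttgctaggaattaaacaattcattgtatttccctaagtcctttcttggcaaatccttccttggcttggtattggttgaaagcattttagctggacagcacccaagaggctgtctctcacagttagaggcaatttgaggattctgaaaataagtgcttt
Abcg2: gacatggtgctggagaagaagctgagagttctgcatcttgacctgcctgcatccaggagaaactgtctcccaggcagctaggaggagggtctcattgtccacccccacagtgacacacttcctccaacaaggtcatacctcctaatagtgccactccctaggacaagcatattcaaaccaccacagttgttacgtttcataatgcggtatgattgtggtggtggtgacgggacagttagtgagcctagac
Mfsd2a: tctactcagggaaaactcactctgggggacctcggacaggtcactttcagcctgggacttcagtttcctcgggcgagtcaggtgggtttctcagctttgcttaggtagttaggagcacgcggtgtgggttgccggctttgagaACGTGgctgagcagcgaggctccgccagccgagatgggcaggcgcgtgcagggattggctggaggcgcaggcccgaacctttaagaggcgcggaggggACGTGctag

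Both strands were searched for the motifs CTTTGAT (TCF/LEF), TGTTTAC (FOX), ACAATGG (SOX), CCGGAAGT (ETS), ACGTG (the core of the HIF motif), TGACNNNGC (NRF2), GGGCGG (GC box) and TGACGTCA (CRE). The Mfsd2a window held ACGTG at 2 places, 107 and 9 bases before the start, and 16.6% of 32851 RefSeq windows of the same length held it at least once. The windows of Slco1a4 and Abcg2 held none of the 8 motifs. The base composition of the 3 windows differed, with a GC content of 39.2% and no CG dinucleotide for Slco1a4, 51.2% and 3 for Abcg2, and 61.6% and 17 for Mfsd2a, against a median GC content of 52.4% over all windows. The motifs share letters, since ACGTG can overlap the CRE and NRF2 motifs. A RefSeq window was found for 9 of the 10 members. Among the others, TGTTTAC, in 3.17% of all windows, occurred in that of Abcb1a, ACGTG in those of Slc2a1 and Slc16a1, TGACNNNGC, in 10.2%, in that of Slc16a1, and the GC box, found in 32.7% of all windows, in those of Slc2a1, Slc16a1, Ocln and Tjp1. The RefSeq starts of Abcb1a and Tjp1 lie 92986 and 156537 bases from the annotated gene start, so their windows belong to another start.

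In thalamus, where ret/ret pieces were calcified, Slc7a5 was the one member whose groups did not overlap, and no member passed the adjusted test. Slc7a5 stood at 54.0, 51.8, 52.9 and 60.3 CPM in ret/wt thalamus and at 97.5, 70.4, 76.8 and 70.9 CPM in ret/ret thalamus. Every ret/ret library was above every control. The log2 fold change was 0.56 ± 0.17, a 1.47-fold difference (unadjusted p = 0.0091, adjusted p = 0.9998), and 0.59 without the animals with Y-linked reads. By edgeR's quasi-likelihood test 0 of 10 members and 0% of the 14767 genes tested had an adjusted p under 0.05, 1 member and 3.93% of genes had an unadjusted p under 0.05, and DESeq2 and limma-voom called 0 members. Groups were apart for 1 of 10 members, a higher one, and for 2.73% of all genes (1.7% higher). Markers of microglia had a median log2 fold change of 0.69 here, with 10 of 10 genes positive and a summed level of 329 to 420 CPM in ret/wt and 518 to 777 CPM in ret/ret thalamus. Of the 20 general endothelial genes, 8 had a larger log2 fold change than Slc7a5 and 12 a smaller one. The part of microglia or endothelium in the Slc7a5 values was not tested.

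The members that stood apart in cortex overlapped in thalamus. Slco1a4 was at 32.4, 52.5, 61.3 and 29.6 CPM in ret/wt and at 61.9, 116.2, 35.7 and 41.7 CPM in ret/ret thalamus, a log2 fold change of 0.57 ± 0.39 that was 0.33 without the animals with Y-linked reads and 0.12 without ret/ret thalamus replicate 2. Abcg2 was at 14.9, 19.5, 11.5 and 22.5 CPM in ret/wt and at 25.1, 18.2, 16 and 29.3 CPM in ret/ret thalamus, a log2 fold change of 0.40 ± 0.28. For both genes the groups overlapped. The highest Slco1a4 values of the ret/wt and ret/ret groups, 61.3 and 116.2 CPM, came from the libraries with the highest thalamus neuron sums. The part of tissue content in these values was not tested. Mfsd2a was at 23.6, 18.6, 24.1 and 30.8 CPM in ret/wt thalamus and at 14.9, 16, 21.1 and 20.2 CPM in ret/ret thalamus, a log2 fold change of −0.40 ± 0.22 (unadjusted p = 0.098). It was again below all 20 general endothelial genes, whose lowest value was −0.05, but Slco1c1, Slc2a1 and Slc16a1 were each below 19 of them here.

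The remaining 6 members had log2 fold changes from −0.04 to 0.37 in thalamus. Abcb1a was at 40.1, 36.8, 30.6 and 47.3 CPM in ret/wt and at 64.4, 53.1, 34.7 and 43.8 CPM in ret/ret thalamus (0.37 ± 0.24). The values of Tjp1 were 0.25 ± 0.25, of Ocln 0.19 ± 0.29, of Slc2a1 0.14 ± 0.24, of Slc16a1 −0.01 ± 0.16 and of Slco1c1 −0.04 ± 0.24, and all these groups overlapped.

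Whether the genotype difference itself differed between the regions was tested as an interaction over all 16 libraries. No member and 0% of 15286 genes passed the adjusted test by edgeR, 0 members and 1.60% of genes had an unadjusted p under 0.05, and DESeq2 and limma-voom called 0 members. The genotype difference of Slco1a4 in thalamus minus that in cortex was −0.83 ± 0.52 on the log2 scale (unadjusted p = 0.13), that of Abcg2 was −0.47 ± 0.34, that of Mfsd2a was 0.30 ± 0.31, and that of Slc7a5 was 0.38 ± 0.21 (unadjusted p = 0.086). For Slco1a4 the unadjusted p depended on the fit: with the animal as a block, which the shared animals of the 2 regions allow, the difference was −0.84 ± 0.35 (unadjusted p = 0.039), and without ret/ret thalamus replicate 2 it was −1.28 ± 0.46 (unadjusted p = 0.014). The adjusted p was 1 in both fits, so no member was shown to respond differently in the 2 regions.

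Set against the endothelial genes of the same library, Mfsd2a was again the member that was lowest in ret/ret cortex relative to the controls. That rank was fixed beforehand, since the same reference is subtracted from every member on the log2 scale and cannot change their order. The ratio of a member to the geometric mean of the 20 general endothelial genes was 0.341 times the control ratio for Mfsd2a in cortex and 0.495 times in thalamus. In cortex the log2 ratio of Mfsd2a ran from −1.01 to −0.05 in ret/ret and from 0.75 to 1.59 in ret/wt libraries. The ratios of Slco1c1 (0.554 times) and Tjp1 (0.623 times) were also lower in cortex with no overlap, so 3 of the 10 were lower and apart. The higher endothelial reference of ret/ret cortex lowers this ratio for every gene alike: 33.2% of all genes tested were apart on this scale and 33.1% were lower and apart, so that count is near the background. In cortex the ratio was 1.03 times that of the controls for Abcg2, 0.841 times for Abcb1a and 1.39 times for Slco1a4, all with overlapping groups. In thalamus 0 of 10 ratios were apart, against 7.99% of all genes. Slc7a5, whose CPM values were apart there, had a ratio of 0.95 times that of the controls.

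Among the controls, thalamus held less Slc7a5 and more Slc16a1 than cortex, and these 2 members passed the adjusted test. Slc7a5 fell from 83.8 ± 12.5 CPM (SD, n = 4) in cortex to 54.7 ± 3.8 CPM in thalamus, a log2 fold change of −0.60 ± 0.17 (adjusted p = 0.047). Slc16a1 rose from 42.2 ± 6.0 to 62.8 ± 2.4 CPM, a log2 fold change of 0.58 ± 0.17 (adjusted p = 0.049). Both differences went the same way in 4 of 4 animals, and 12.6% of 14442 genes passed this test (5.44% higher and 7.12% lower in thalamus). Both adjusted p-values sit close to the threshold: with the animal as a block they were 0.086 for each gene, without the animals with Y-linked reads 0.11 for each, and both calls were lost in 7 of the 8 fits that leave out 1 library, all but the one without ret/wt thalamus replicate 4. DESeq2 and limma-voom called the same number, 2 members, while over all 14442 genes they called 2587 and 1797. Oligodendrocyte markers changed in the same contrast: 9 of 9 were called higher in thalamus, with a median log2 fold change of 1.73 and a summed level of 1831 to 4566 CPM in ret/wt cortex and 9754 to 11750 CPM in ret/wt thalamus. Their part in these regional differences was not tested.

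The other carriers leaned to thalamus in both genotypes without passing the test. Slc2a1 was at 101.8, 91.2, 131.8 and 160.6 CPM in ret/wt thalamus and at 171.0, 125.3, 104.7 and 123.3 CPM in ret/ret thalamus, and it was higher in thalamus than in cortex of the same animal in 4 of 4 ret/wt and 4 of 4 ret/ret animals. Its regional log2 fold change was 0.53 ± 0.21 in ret/wt (adjusted p = 0.14) and 0.38 ± 0.19 in ret/ret mice (adjusted p = 0.25). Mfsd2a was likewise higher in thalamus in 4 of 4 animals of each genotype, by 0.47 ± 0.22 in ret/wt (adjusted p = 0.20) and 0.76 ± 0.24 in ret/ret mice (adjusted p = 0.077). Each of these genes was nearly level between the regions in 1 animal of each genotype, with differences of 0.02 (ret/wt) and 0.048 (ret/ret) for Slc2a1 and of 0.052 (ret/wt) and 0.03 (ret/ret) for Mfsd2a.

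Within ret/ret mice, no member passed the adjusted test between thalamus and cortex by edgeR, where 9.50% of 14715 genes did, while 2 members, Abcg2 and Mfsd2a, had an unadjusted p under 0.05, as had 26.7% of all genes. DESeq2 called 2 (Abcg2 and Mfsd2a, at adjusted p-values of 0.027 and 0.024) and limma-voom 0. Over all genes DESeq2 called 2591 of 14715 and limma-voom 1364, so the 2 members called by DESeq2 are read as near the background. Abcg2 was lower in thalamus in 4 of 4 animals, by −0.59 to −0.98 on the log2 scale, with groups that did not overlap. Its fitted log2 fold change was −0.76 ± 0.23, with an adjusted p of 0.069 and of 0.032 with the animal as a block, and it was −0.72 without the animals with Y-linked reads (adjusted p = 0.093). In ret/wt mice the same difference was −0.28 ± 0.26, lower in 3 of 4 animals, and the interaction given above did not pass the test. Slc16a1 had a regional difference of 0.38 ± 0.28 in ret/ret mice, which was 0.76 (adjusted p = 0.032) without ret/ret cortex replicate 2. Groups were apart for 3 of 10 members in ret/wt and 2 of 10 in ret/ret mice, against 19.9% and 17.4% of all genes.

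**Figure D3:**
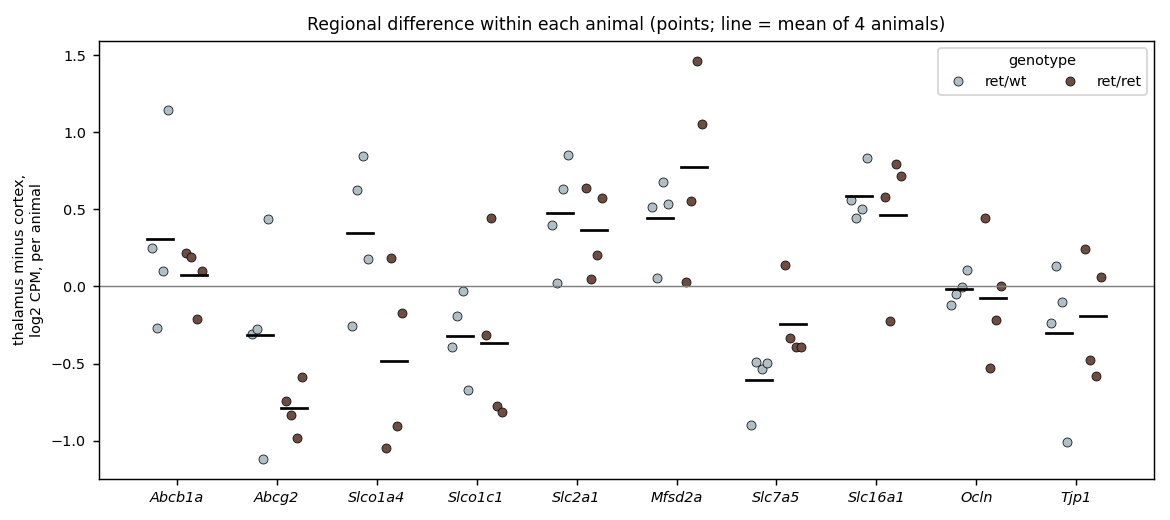
Thalamus minus cortex of the same animal, in log2 CPM, for each member. Each point is 1 animal of the ret/wt (light) or ret/ret (dark) genotype and lines are means of 4 animals. All 8 points of Slc2a1 and of Mfsd2a lie above 0, and all 4 ret/ret points of Abcg2 lie below it.

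Divided by exon length, Slc2a1 was the member with the highest level in all 4 groups, from 24.3 ± 1.6 CPM per kilobase (SD, n = 4) in ret/wt cortex to 37.4 ± 8.0 in ret/ret thalamus. Slc7a5 came next in every group, with 22.6 ± 3.4 in ret/wt cortex, where the ranges of the first 2 overlapped, and 14.8 ± 1.0 in ret/wt thalamus, where they did not. Abcg2 and Ocln were lowest, at 2.57 ± 0.50 and 2.63 ± 0.40 in ret/wt cortex, and could not be ordered. In ret/wt cortex the order was Slc2a1, Slc7a5, Tjp1, Slco1c1, Slc16a1, Mfsd2a, Abcb1a, Slco1a4, Ocln and Abcg2, and of the neighbours in it only Slc7a5 and Tjp1, Tjp1 and Slco1c1, and Slco1a4 and Ocln had ranges that were apart. In ret/ret cortex Slco1a4 was the fourth, at 13.4 ± 5.6, and Mfsd2a the eighth, at 4.75 ± 1.30. The order depends on the length used: with the longest coding transcript Slco1c1 was the third in ret/wt cortex.

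The other genes of the barrier were described by lists. Of 26 other barrier transporters tested, 4 were higher and 1 lower in ret/ret cortex at an unadjusted p under 0.05, where 2.62% of all genes were higher and 1.14% lower, and 0 passed the adjusted test. Their median log2 fold change was 0.05. The smallest p belonged to Slc39a8, a zinc and manganese carrier, at 10.1 ± 3.0 CPM against 3.63 ± 0.90 CPM, a log2 fold change of 1.49 ± 0.31 (unadjusted p = 0.00069, adjusted p = 0.48). In thalamus 5 of 26 were higher at that level, where 3.05% of all genes were, and 0 lower, with a median of 0.14. Without the animals with Y-linked reads 3 were higher and the median was 0.027. The smallest p was that of Slc38a3, a glutamine carrier (0.66 ± 0.20, unadjusted p = 0.0086), which is also strong in astrocytes.

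Of the other junction genes, 19 were tested in cortex with a median of 0.01, and F11r, the junctional adhesion molecule JAM-A, had the smallest p (11.5 ± 2.9 CPM against 7.22 ± 0.71 CPM, log2 fold change 0.68 ± 0.24, unadjusted p = 0.017). In thalamus 21 were tested with a median of −0.03, and the smallest unadjusted p, 0.058, was that of Jam2. Among 15 receptors and transcytosis genes in cortex and 16 in thalamus, none had an unadjusted p under 0.05. The smallest were those of Ehd2 in cortex (0.64 ± 0.31, unadjusted p = 0.065) and Cav2 in thalamus (0.37 ± 0.20, unadjusted p = 0.10), both parts of the caveolar machinery. None of these genes passed the adjusted test.

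Wnt signalling from brain tissue induces the barrier, and 21 of 22 genes of the Wnt and transcription factor list had a positive log2 fold change in ret/ret cortex, as had 51.9% of all genes tested. Their median was 0.34, below that of the general endothelial genes. At an unadjusted p under 0.05, 4 of 22 were higher, against 2.62% of all genes. The number was 2 without ret/wt cortex replicate 3, ret/wt cortex replicate 4 or ret/ret cortex replicate 1. None passed the adjusted test. Sox7, an endothelial transcription factor, had the smallest p (4.31 ± 0.71 CPM against 1.83 ± 0.42 CPM, log2 fold change 1.25 ± 0.31, unadjusted p = 0.0026, adjusted p = 0.73). In thalamus 17 of 23 were positive, against 47.1% of all genes, with a median of 0.14, and the smallest unadjusted p was that of Apcdd1 (0.64 ± 0.29, unadjusted p = 0.051).

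Between the regions, the adjusted test in ret/wt mice called 3 transporters higher and 2 lower in thalamus of 26 tested, 3 junction genes higher and 1 lower of 19, 0 receptors and transcytosis genes higher and 1 lower of 15, and 3 genes of the Wnt and transcription factor list higher and 0 lower of 22. It called 12.6% of all genes, so these shares are read as near the background. In ret/ret mice it called 1 transporter higher and 2 lower of 26, 2 junction genes higher and 1 lower of 19, 1 receptor or transcytosis gene lower of 16 and 0 of 23 on the Wnt list, against 9.50% of all genes. In ret/wt mice the transporters Slc6a9, a glycine carrier (log2 fold change 1.83 ± 0.31), Slc29a1, a nucleoside carrier (1.34 ± 0.38), and Slc7a3, a cationic amino acid carrier (1.01 ± 0.28), rose in thalamus. The zinc carrier Slc39a10 (−1.75 ± 0.34) fell. Among junction genes Cgn (1.40 ± 0.39) and Jam3 (0.88 ± 0.19) rose and Nectin3 (−1.36 ± 0.28) fell, Cav2 fell by 1.03 among the transcytosis genes, and Lef1 (3.34 ± 0.39) and Nkd1 (1.06 ± 0.25) rose. In ret/ret mice Slc6a9, Jam3 and Pard3 (0.88 ± 0.22) rose, and Slc39a10, Nectin3 and Lrp8 (−0.92 ± 0.14) fell. Neurons and glia express many of these genes, and the cortex and thalamus neuron markers changed with region by more, with medians of −4.92 and 3.51 in ret/wt mice. Oligodendrocyte markers were called in 8 of 9 cases in ret/ret mice, all higher in thalamus, with a median of 1.56.

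The members did not vary as one block from library to library. Over the 16 libraries 29 of 45 pairs of members correlated positively, with a median Pearson r of 0.20 and a range from −0.71 (Mfsd2a with Slc7a5) to 0.61 (Slc2a1 with Slc16a1). After the group means were subtracted the median was 0.05, and the highest r was 0.70, between Slc16a1 and Ocln, which were both highest among cortex libraries in ret/ret cortex replicate 2. Abcb1a followed the mean of the general endothelial genes most closely, at r = 0.85 over the 16 libraries and 0.75 with group means subtracted. Mfsd2a did not, at −0.30 and 0.06, but it was not alone. The values were 0.0005 and −0.23 for Slc16a1, 0.13 and 0.02 for Ocln, −0.03 and 0.23 for Slco1c1, and 0.23 and 0.18 for Tjp1. For Slco1a4 they were 0.49 and 0.06. These are descriptions of 16 libraries of which 2 come from each animal.

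**Figure D4:**
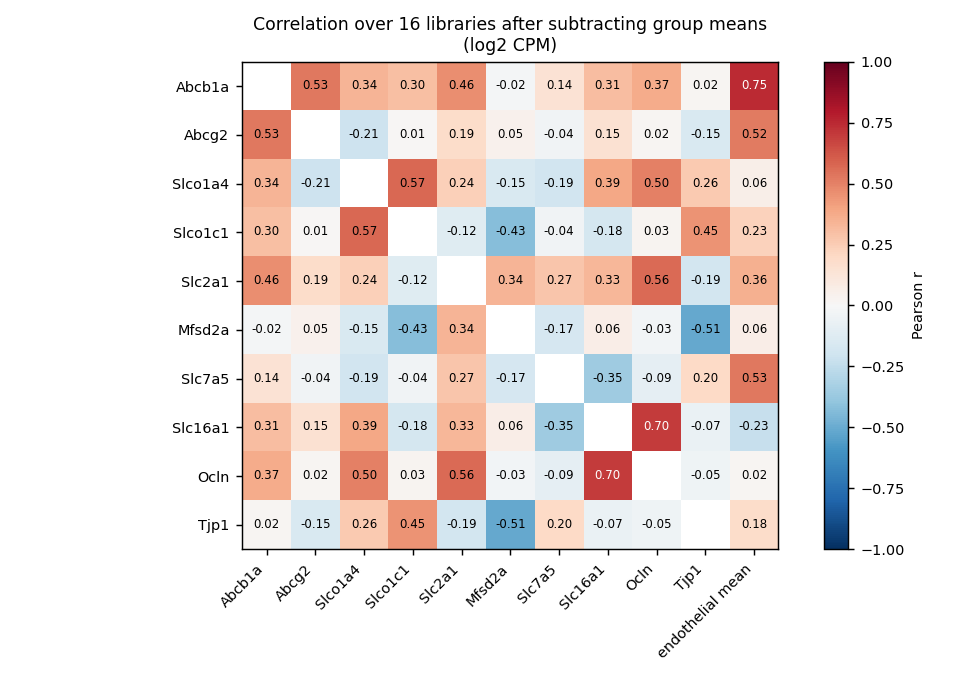
Pearson correlation between members, and with the mean of the 20 general endothelial genes (last column), over 16 libraries in log2 CPM after subtracting group means. Red is positive and blue negative. Abcb1a with the endothelial mean, at 0.75, and Slc16a1 with Ocln, at 0.70, are the highest values, and most other cells are pale.

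The genes most like each member over the 16 libraries were sought among 12771 genes, so high values arise from the size of the search alone. For Abcb1a they were H2-Q4 (r = 0.93), Pecam1, an adhesion molecule of endothelium (0.91), and H2-Q6 (0.90). For Slco1a4 they were Slc39a8 (0.85), Ptprb, an endothelial phosphatase (0.85), and Gdpd5 (0.83), and for Abcg2 they were Ephx2 (0.83), Fgfbp1 (0.82) and Ccn2 (0.80). For Mfsd2a the closest were Mob3a (0.84), Gpc3 (0.83) and Cct2 (0.82), none of them on the endothelial list. The closest single genes were Phka2 for Slco1c1 (0.87), 1500009C09Rik for Slc2a1 (0.93), Ezr for Slc7a5 (0.83), F3 for Slc16a1 (0.92), Sap18 for Ocln (0.82) and Phc1 for Tjp1 (0.88).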

How the data were processed

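The 16 libraries were grouped by the genotype and region in the labels. The members and gene lists were chosen with earlier results of these data known. The deposited table holds expected counts per Ensembl gene, which look like estimated reads without scaling, though this is not stated. Totals differed, and 100.0% of nonzero values were not whole. Among low values of genes with a single coding transcript, 74.0% lay within 0.1 of a whole number. The submitters' processing notes name kallisto 0.44.0 and GRCm38.p6. How transcripts were summed to genes and which annotation was used are not given in the sources used here. Symbols and coordinates came from GENCODE M21 (21612 of 21804 genes matched) and upstream sequences from RefSeq.

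The deposited estimated counts were rounded and tested in R 4.3.3 with edgeR 4.0.16 (filterByExpr with a minimum count of 10, TMM, quasi-likelihood test, Benjamini-Hochberg over all genes tested, threshold 0.05). Each comparison used its own 8 libraries, and the interaction all 16. Standard errors are the log2 fold change divided by the root of the F statistic. CPM values share a TMM scale over 16 libraries. Alternatives were DESeq2 1.42.0, limma-voom (limma 3.58.1), library size scaling, no filter, all libraries in the fit, a replicate block, and libraries or animals left out. Named from the other lists were genes that passed the adjusted test, at most 5 per list and comparison by size of change, or otherwise the gene with the smallest p. Some genes that this rule names are not reported here. Genes like a member needed a mean log2 CPM of at least 1. The labels give cortex and thalamus of an animal the same replicate number, so numbers pair the regions by animal, although the correlations of deviations were only −0.02 to 0.24 within pairs. Across genotypes equal numbers are different animals. Replicates are separate animals, and no 2 libraries of a group agreed within sampling noise (chi-square per gene 40.5 to 202). On simulated data the test recovered 79.5% of 200 genes changed by 2 on the log2 scale among the 14288 genes of the genotype comparison in cortex, 75.5% of 200 among 14767 in thalamus, 78% among 14442 between regions in ret/wt mice, 75% among 14715 in ret/ret mice and 53.5% among 15286 for the interaction. No member differed by that much: the largest log2 fold change was 1.39, for Slco1a4 by genotype in cortex. Recovery at sizes like those of the members was therefore not measured. Tables and plots used Python 3.11.15, pandas 2.3.3, numpy 2.4.6 and matplotlib 3.10.9.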

Additional observations from a re-analysis of the deposited data

Results flagged for a closer look

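Ocln, the occludin gene, had 1 library far above the other 3 in ret/ret cortex: replicate 2 stood at 25.4 CPM, and the gap to the next library was 0.93 of the range of the group, above Dixon's critical value for 4 libraries. Of the 40 groups of 4 libraries examined (10 members in 4 groups), this was the only one past that value, and chance alone gives about 1 in 20. The same library held cerebellum genes at a mean log2 CPM of 7.67, and their part in the Ocln value was not tested.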

How the results depend on the processing

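The counts of members called changed as follows. In the genotype comparison in cortex DESeq2 called 2 members and every other alternative 0, and in thalamus and for the interaction all alternatives called 0. Between regions in ret/wt mice, where the count was 2, library size alone and all 16 libraries in the fit gave 1, no filter and leaving out the animals with Y-linked reads gave 0, the replicate block gave 0, and leaving out 1 library gave 0 to 2. In ret/ret mice, where it was 0, DESeq2 gave 2, all 16 libraries in the fit 1, the replicate block 1, the fit without the animals with Y-linked reads 1, and leaving out 1 library 0 to 1. The members whose groups were apart relative to endothelial genes numbered 1 in cortex with Pecam1, Cdh5 and Tie1 as the reference (Erg was not analysed here), 3 to 6 when 1 library was left out (6 without ret/ret cortex replicate 2), and 0 to 3 in thalamus. Groups are apart more readily when a library is left out, and 33.2% of all genes were apart in cortex with all libraries. The shares of all genes in these other fits are not given here, so the counts are not read as results about the members. The replicate block changed no other call on a member. The causes were not tested.

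Signs turned for members with small differences. Without the animals with Y-linked reads the log2 fold change in cortex was 0.071 for Slco1c1, −0.14 for Slc16a1 and −0.22 for Ocln, and for Ocln it was −0.068 by genotype in thalamus and 0.14 by region in ret/ret mice. In the same fit the interaction was 0.039 for Slc2a1, 0.11 for Slc16a1 and 0.15 for Ocln. Library size alone gave 0.0056 for Slco1c1 in cortex. The regional difference of Ocln in ret/wt mice was −0.0031 with no filter, −0.020 with limma-voom, −0.0084 with all libraries and −0.0035 with the block.

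Leaving out 1 library gave ranges that cross 0. In the genotype comparison in cortex they were −0.11 to 0.11 for Slco1c1, −0.19 to 0.35 for Slc16a1 and −0.17 to 0.47 for Ocln. In thalamus they were −0.17 to 0.0875 for Slco1c1, −0.028 to 0.33 for Slc2a1, −0.063 to 0.086 for Slc16a1 and −0.022 to 0.36 for Ocln. Between regions they were −0.11 to 0.11 for Ocln in ret/wt mice, −0.32 to 0.36 for Ocln and −0.058 to 0.27 for Abcb1a in ret/ret mice. For the interaction they were −0.17 to 0.077 for Slco1c1, −0.29 to 0.027 for Slc2a1, −0.37 to 0.17 for Slc16a1, −0.34 to 0.35 for Ocln and −0.11 to 0.25 for Tjp1. Slco1a4 and Abcg2 stayed positive and Mfsd2a negative by genotype in both regions under every alternative run. Their ranges without 1 library were 1.13 to 1.58, 0.76 to 0.95 and −0.90 to −0.57 in cortex and 0.12 to 0.78, 0.24 to 0.59 and −0.52 to −0.24 in thalamus.

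Over all genes, calls by genotype numbered 3 in cortex and 0 in thalamus with edgeR, and 38 and 37 with DESeq2. In cortex they were 7 with all 16 libraries, 2 with limma-voom, 1 without the animals with Y-linked reads and 0 with the block, and in thalamus 3 with all 16 libraries. By genotype the block joins different animals that share only a number, so its count is not read as a check. Leaving out 1 library gave 0 to 2 calls in cortex and 0 in thalamus. For the interaction DESeq2 called 4 genes. Between regions in ret/ret mice the 1398 calls became 2591 with DESeq2, 2564 without the animals with Y-linked reads and 627 to 2007 without 1 library, and in ret/wt mice the 1813 calls became 1178 to 1797. With library size alone 53.7% of ret/wt regional calls were higher in thalamus, against 43.3%.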
